A study of Homo sapiens with 5 samples.

Results

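The small RNA silencing machinery comprised 10 genes chosen by name: the microprocessor genes DROSHA and DGCR8, the export receptor gene XPO5, the dicing and loading genes DICER1 and TARBP2, the Argonaute genes AGO1 and AGO2, and the GW182 family genes TNRC6A, TNRC6B and TNRC6C. All 10 were among the 10504 genes measured. RNA and ribosome footprints (mRNA fragments protected by ribosomes, read by Ribo-seq) were measured in HEK293A, a flat-growing subline of the embryonic kidney cell line HEK293. They were transfected with a control siRNA (siCon, 2 libraries) or with an siRNA against IRE1α, the endoplasmic reticulum stress sensor encoded by ERN1 (siIRE1a, 2 libraries), and in both groups serum starvation was followed by fetal bovine serum (FBS). A further Ribo-seq library is labelled as multiplexed from both groups, and how many footprint libraries stand behind each group is not settled by the labels. Both groups therefore carried a transfected siRNA and serum, and no culture without either is analysed here. Nothing in the labels says whether the libraries of a group came from separate cultures.

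MicroRNAs are cut from long transcripts in the nucleus by DROSHA with its partner DGCR8, carried to the cytoplasm by exportin 5 (XPO5), and cut again by DICER1 with TARBP2. The resulting short strand is bound by an Argonaute protein, which pairs with target mRNAs through the seed of the strand. GW182 proteins bind Argonaute and bring in the deadenylases that shorten the poly(A) tail, after which the mRNA is decapped and degraded. A transfected siRNA enters this route at Argonaute, and AGO2 is the human Argonaute best known for cutting targets.

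The 4 siCon and siIRE1a libraries had between 28769136 and 49112701 clusters. The deposited tables gave 1 RNA value and 1 footprint value per group and gene, so no spread between replicates stands beside them, and changes in RNA and footprints are values with no test. Translational efficiency (TE) is the ratio of footprints to RNA, and its change was tested by the authors. A TE change was called at an adjusted p under 0.05 in the authors' deposited table. The unit of abundance is not given in the sources used here, and the lower edge of footprint abundance fell with coding length at a log-log slope of −1.08, as values per length do, while that of RNA fell at −0.44. RNA and TE levels of different genes are therefore given side by side only, and changes between groups do not rest on this. All changes are siIRE1a relative to siCon on the log2 scale. ERN1 RNA was 0.121 in siCon and 0.0736 in siIRE1a cells. Of 10 markers fixed for the HEK293 lineage, 6 were measured, VIM and KRT8 among them, while PAX2 and LHX1 were not, and none of 5 blood and liver markers was measured. Of 4 fibroblast markers 2 were measured, COL1A1 (RNA 0.292 in siCon and 0.313 in siIRE1a cells) and COL3A1 (0.190 and 0.259), and their part in the results was not tested.

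None of the 10 silencing genes passed the test for a change in TE between the groups. In the authors' deposited table, named after DESeq2, 0 of 10 were called, against 10.5% of the 8878 genes tested (5.9% higher and 4.62% lower). At an adjusted p under 0.1 there was 1 of 10 (DICER1), against 16.5%. At an unadjusted p under 0.05, back-calculated from the deposited adjusted p, there was 1 of 10 (DICER1), against 25.9% of genes. No silencing gene was 1.5-fold apart in RNA, against 10.6% of all genes, or in footprints, against 1.75%. For RNA the background was 3.86% higher and 6.7% lower, and for footprints 0.847% higher and 0.904% lower. Footprints were lower in siIRE1a cells for 9 of the 10 genes, with a median change of −0.17, and for 67.9% of all genes, with a median of −0.08. After the median of all genes was set to 0, 8 of the 10 were lower. RNA was lower for 6 and higher for 4, with a median of −0.07 against −0.01 for all genes. The lowest footprint change was that of AGO2 and the lowest RNA change was also that of AGO2.

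**Figure D1:**
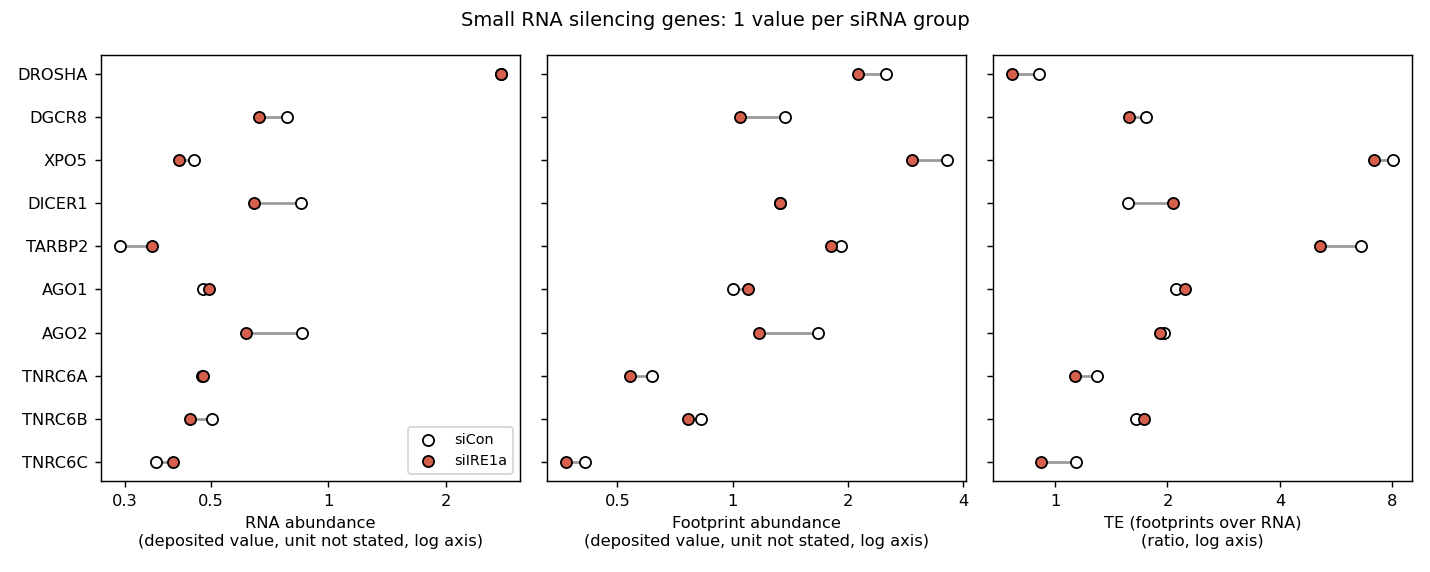
RNA abundance, footprint abundance and TE of the 10 silencing genes in siCon (white) and siIRE1a cells (red), 1 deposited value per group, each on a log axis. The widest gaps in RNA are those of AGO2 (0.853 and 0.613) and DICER1 (0.852 and 0.643), and only AGO2 of these has a like gap in footprints (1.67 and 1.17).

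Both microprocessor genes had lower footprint values in siIRE1a cells, as did 67.9% of all genes. DROSHA encodes the nuclear RNase III that makes the first cut. Its RNA abundance was 2.77 in both groups, and its footprint abundance went from 2.51 in siCon to 2.12 in siIRE1a cells. DROSHA RNA thus did not separate the groups (log2 change −0.003), while its footprints were 1.18-fold lower (−0.24). The DROSHA TE change was −0.22 in the authors' deposited table (back-calculated standard error 0.135, adjusted p = 0.297). DGCR8 encodes the RNA-binding partner that recognises the hairpin. DGCR8 RNA was 0.782 in siCon and 0.663 in siIRE1a cells, and its footprints were 1.37 and 1.05. Both of its values were lower in siIRE1a cells, by 1.18-fold in RNA and 1.31-fold in footprints, and that footprint change lay at percentile 4.52 of all genes. DGCR8 had a TE change of −0.10 in the authors' deposited table (adjusted p = 0.781). Its RNA also stood further below genes of like base composition, at −0.40 once the trend with GC content was removed, a fit that turned its TE change to 0.13. Ratios between genes are given only to compare the groups, where a gene's length cancels. The RNA ratio of DROSHA to DGCR8 was 3.54 in siCon and 4.17 in siIRE1a cells, and the footprint ratio was 1.84 and 2.03. Of the DGCR8 transcript, 11.6% shares its exon bases with an antisense gene, and it also contains the hairpins of MIR3618 and MIR1306. Whether the reads were counted by strand is not given in the sources used here.

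XPO5, which encodes the export receptor for precursor hairpins, had the highest footprint level of the 10 genes in both groups. Footprint abundance of XPO5 went from 3.64 in siCon to 2.95 in siIRE1a cells, and RNA from 0.452 to 0.413. XPO5 footprints were 1.23-fold lower (−0.30, percentile 9.69 of all genes) and its RNA 1.09-fold lower. For TE, XPO5 stood at −0.17 in the authors' deposited table (standard error 0.148, adjusted p = 0.483). The XPO5 transcript shares 348 exon bases with POLR1C on the opposite strand.

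DICER1, the cytoplasmic RNase III, came nearest to the threshold. DICER1 RNA was 0.852 in siCon and 0.643 in siIRE1a cells, and its footprints were 1.33 in both. The RNA was 1.32-fold lower (−0.41, percentile 15.3 of all genes), whereas the footprint change was −0.003. The DICER1 TE change was 0.43 in the authors' deposited table (standard error 0.160, 95% interval 0.12 to 0.75), with an adjusted p of 0.0580. Its TE was 1.56 in siCon and 2.07 in siIRE1a cells. With the median TE change of the 8878 tested genes set to 0, DICER1 passed the threshold (adjusted p = 0.0395). With the trend on GC content removed its TE change was 0.13 (adjusted p = 0.863). TARBP2 encodes the double-stranded RNA binding partner of DICER1. TARBP2 RNA was higher in siIRE1a cells, going from 0.291 in siCon to 0.353 in siIRE1a cells (1.21-fold higher), with footprints of 1.92 and 1.80. TARBP2 had a TE change of −0.36 in the authors' deposited table (standard error 0.254, adjusted p = 0.366). The RNA ratio of DICER1 to TARBP2 was 2.93 in siCon and 1.82 in siIRE1a cells, while the footprint ratio was 0.694 and 0.737.

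DICER1 is a known target of miR-103 and miR-107, which share a seed, so its 3′ UTR links the abundance of the enzyme to its own products. The mature sequences, from RefSeq (GRCh38.p14), are shown because their seed defines the sites below, with bases 2 to 8 in capitals.
hsa-miR-103a-3p: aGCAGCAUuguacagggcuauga
hsa-miR-107: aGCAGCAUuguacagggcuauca
The 7 bases complementary to this seed, ATGCTGC on the sense strand, occurred 5 times in the 4270 bases of the DICER1 3′ UTR (GENCODE 29, the transcript with the longest coding sequence). Such a site was found in 28.7% of the 1708 measured genes whose 3′ UTR was within 1.5-fold of that length, with a median of 0 sites. The 5 sites lie on the minus strand of chromosome 14 (GRCh38), and 4 of them are followed by A. Each is shown with its flanks, the site in capitals.
chr14:95089458-95089464: acacctaaaatATGCTGCagattttataa
chr14:95088857-95088863: tgcttcgtggaATGCTGCatttatatgta
chr14:95087653-95087659: cagtcctaactATGCTGCgttttataata
chr14:95086382-95086388: tttaccatcacATGCTGCagctgtttttt
chr14:95086330-95086336: atacagtaatcATGCTGCagaaatttgca
The same 7 bases occurred 5 times in the AGO2 3′ UTR (11888 bases), 3 times each in AGO1 (10921 bases) and TNRC6B (12566 bases), and once in TARBP2 (283 bases). In the other 5 members they were not found. Among genes with a 3′ UTR of like length, 55.6% held a site for AGO2, 52.9% for AGO1, 57.2% for TNRC6B and 3.19% for TARBP2. These are matches of letters and were not read as bound sites, and no small RNA was measured. The let-7a site CTACCTC occurred in 3 members (AGO1, AGO2 and TARBP2) and the miR-17 site GCACTTT in 5 (AGO1, AGO2, TNRC6A, TNRC6B and TNRC6C). DICER1 held neither, and of genes with a 3′ UTR of like length to its own 20.7% held the first and 49.0% the second. Genes of like length to AGO2 held them in 43.9% and 84.1%.

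AGO1 and AGO2 differed in direction. AGO2 RNA was 0.853 in siCon and 0.613 in siIRE1a cells, and its footprints were 1.67 and 1.17. AGO2 was thus lower in both assays, by 1.39-fold in RNA (−0.48, percentile 11.3 of all genes) and by 1.42-fold in footprints (−0.51, percentile 1.67). Its RNA and footprint changes were nearly equal, and the authors' deposited table puts the change of its TE at −0.02 (adjusted p = 0.959). The 95% interval of that TE change ran from −0.36 to 0.33, with a standard error taken from genes of like RNA abundance. Removing the GC trend left AGO2 at −0.42 in RNA and −0.44 in footprints. AGO1 RNA was 0.477 in siCon and 0.495 in siIRE1a cells, and its footprints were 1.004 and 1.099. AGO1 was the only member whose footprints were higher in siIRE1a cells, by 1.095-fold (0.13, percentile 85.9 of all genes). The authors' deposited table gives AGO1 a TE change of 0.09 (adjusted p = 0.750). The footprint ratio of AGO2 to AGO1 was accordingly 1.66 in siCon and 1.07 in siIRE1a cells, and the RNA ratio was 1.79 and 1.24. With 1 value per group, whether these ratios differ beyond replicate error was not tested.

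**Figure D2:**
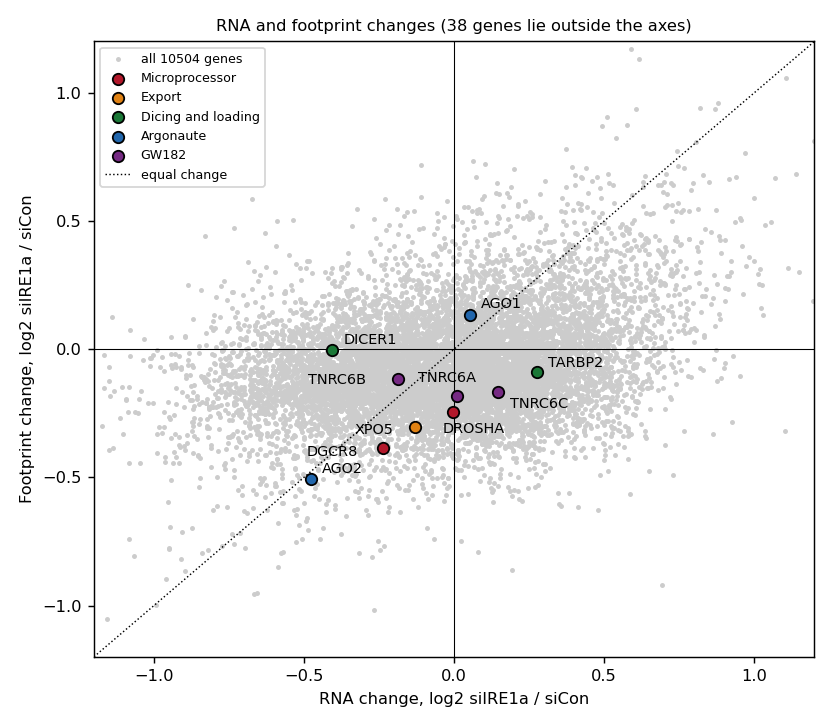
Footprint change against RNA change (log2 siIRE1a over siCon) for all 10504 genes (grey) and the 10 silencing genes by role, with 38 genes outside the axes and a dotted line of equal change. AGO2 lies on the line at −0.48 and −0.51, while DICER1 lies left of it at −0.41 and −0.003.

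AGO1 also held a pair of overlapping 7-mers, chosen with lower footprint values of their genes in siIRE1a cells already known. Genes with GGACCTA in the 3′ UTR (445 genes) had a median footprint change of −0.15 against −0.08 for those without, and a median RNA change of −0.18 against −0.01. For genes with GACCTAA (604 genes) the median footprint change was −0.14 against −0.08 and the median RNA change −0.24 against 0.002, so the gap was wider in RNA for both 7-mers. Those 7-mers were taken with the footprint result known, so their lower footprint medians follow from that choice and the medians are a description. Both contain GACCTA, so their sets of genes can overlap and are not separate observations. Genes with and without them were not matched for 3′ UTR length or GC content. The median RNA change was also lower for genes with the miR-17 site GCACTTT, at −0.11 against 0.01. It was −0.08 against −0.004 for ATGCTGC and −0.06 against −0.008 for the let-7a site CTACCTC. Median footprint changes were not lower for genes with those sites. What lies behind these gaps was not tested. GGACCTA occurred in 1 member only, AGO1, where it was found 2 times, and GACCTAA in 3 members (AGO1, AGO2 and TNRC6B). Of genes of like 3′ UTR length to these 3 members, 31.4%, 34.4% and 36.1% held GACCTAA. The AGO1 sites are printed because AGO1 was the member with higher footprints. They lie on the plus strand of chromosome 1 (GRCh38), at bases 6320 and 10508 of the 3′ UTR, and the second also contains GACCTAA, shifted by a base.
chr1:35925927-35925933: tgtacatacgtGGACCTAgcattcctctg
chr1:35930115-35930121: atatttattaaGGACCTAatatttgcctg
Of 242 genes with a 3′ UTR of like length, 18.2% held GGACCTA. Which 3′ ends the cells used was not measured.

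The GW182 genes had the lowest footprint levels of the machinery. TNRC6A, TNRC6B and TNRC6C encode the scaffold proteins that join Argonaute to the deadenylases. TNRC6A had RNA values of 0.474 in siCon and 0.478 in siIRE1a cells and footprints of 0.614 and 0.541. TNRC6B had RNA values of 0.503 and 0.442 and footprints of 0.827 and 0.763. TNRC6C had RNA values of 0.360 and 0.398 and footprints of 0.411 and 0.367. All 3 had lower footprints in siIRE1a cells, between 1.08-fold and 1.14-fold, while their RNA changes had both signs (0.01, −0.19 and 0.15). Footprints were also lower for 67.9% of all genes, with a median change of −0.08. After median centring the 3 genes stood at −0.10, −0.03 and −0.08 in footprints. Their TE changes in the authors' deposited table were −0.16, 0.09 and −0.28, with adjusted p between 0.309 and 0.739. Their summed footprint values were 1.85 in siCon and 1.67 in siIRE1a cells.

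**Figure D3:**
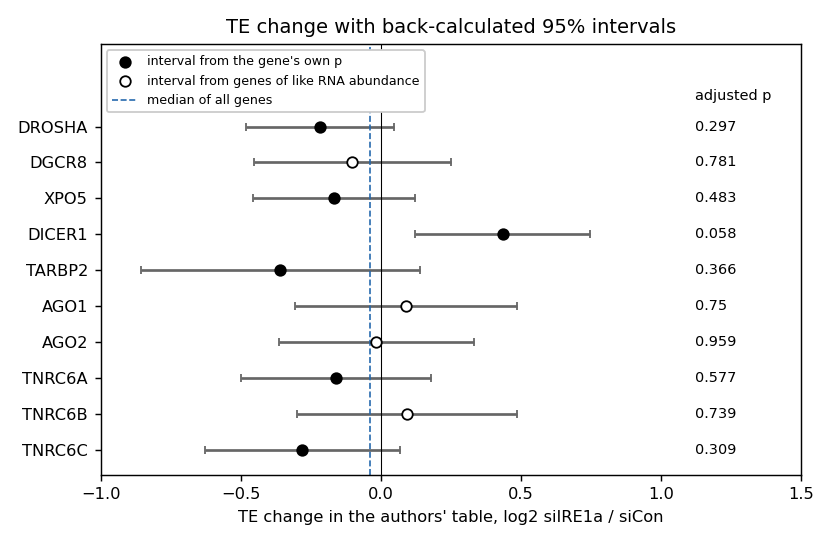
TE change of each silencing gene in the authors' deposited table (log2 siIRE1a over siCon) with 95% intervals from back-calculated standard errors, filled points where the gene's own p gave the interval and open points where genes of like RNA abundance did. The interval includes 0 for 9 of 10 genes, DICER1 being the exception at 0.12 to 0.75, and its adjusted p is 0.0580.

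Across the machinery the standard errors of the TE changes lay between 0.135 (DROSHA) and 0.254 (TARBP2), so the deposited test does not show that the TE of these genes was equal in both groups. The intervals allow a fall of as much as −0.86 for TARBP2 and a rise of as much as 0.75 for DICER1, followed by 0.49 for AGO1 and TNRC6B.

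In siCon cells the footprint levels ran from XPO5 (3.64), DROSHA (2.51), TARBP2 (1.92), AGO2 (1.67), DGCR8 (1.37), DICER1 (1.33), AGO1 (1.00), TNRC6B (0.827) and TNRC6A (0.614) down to TNRC6C (0.411). Without replicates no spread tells which neighbours in this order differ, and DGCR8 and DICER1 were 1.03-fold apart. In siIRE1a cells the first 3 and the last 3 genes kept their places. AGO2 went from above to below DICER1, and DGCR8 from above to below DICER1 and AGO1. No such order is given for RNA, whose scale between genes is not settled.

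TE levels are given beside those of all genes as values only, since footprints and RNA may not share a scale per length. TE in siCon cells was below the median of all genes (4.70) for 8 of 10, and those 8 lay between 0.907 (DROSHA, percentile 2.02) and 2.11 (AGO1, percentile 14.2). XPO5 (8.05) and TARBP2 (6.59) lay above it. The same 8 genes lay below the median of all genes in siIRE1a cells (4.62), with XPO5 at 7.13 and TARBP2 at 5.11. TE fell with coding length across 10442 genes (Spearman's rho −0.538, a description across genes), and 9 of the silencing genes had a coding sequence of 2319 bases or more. Among the 2712 measured genes that long the median TE was 2.88, and 8 of the 9 were below it, between percentile 4.61 (DROSHA) and 31.0 (AGO1), with XPO5 at percentile 95.5.

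TE changes ran with base composition in the machinery and across all genes. GC content of the transcript ran from 39.2% for DICER1, the gene with the highest TE change, to 60.8% for TARBP2, the gene with the lowest. Spearman's rho between the authors' TE change and GC content was −0.673 over the 10 genes and −0.666 over 10442 genes, both descriptions of genes that share the same libraries. RNA change had a rho of 0.619 with GC content over all genes and footprint change one of −0.043. With the trend removed, an alternative fit, the TE changes of the 10 genes lay between −0.26 (DROSHA) and 0.13 (DICER1), and 0 of 10 were called, against 1.4% of genes.

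**Figure D4:**
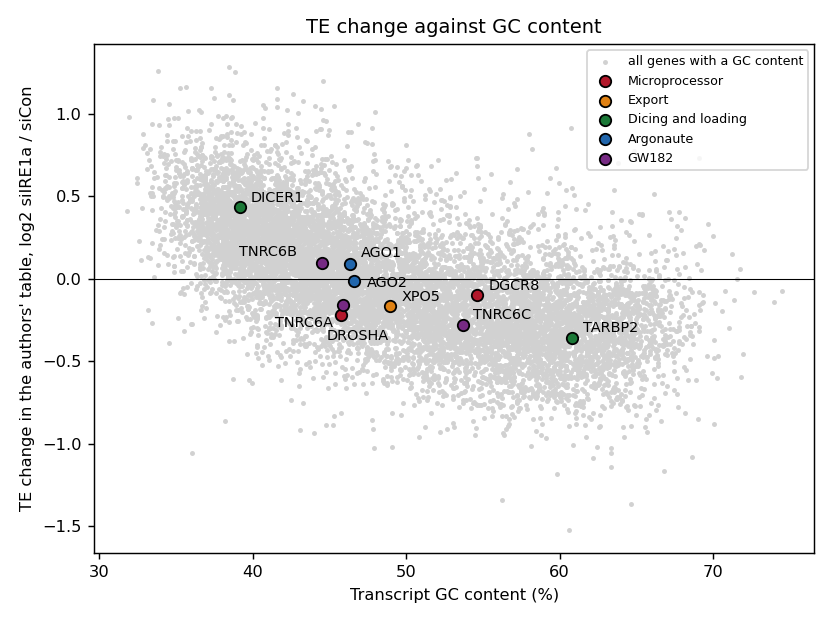
TE change in the authors' deposited table (log2 siIRE1a over siCon) against transcript GC content for all matched genes (grey) and the 10 silencing genes by role. DICER1 at 39.2% GC is the highest member and TARBP2 at 60.8% GC the lowest.

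The other genes of the pathway were followed in 5 lists of 105 genes, of which 98 were measured and 97 tested. Of these, 11 rose and 3 fell in TE in the authors' deposited table, which is 14.4% of those tested against 10.5% of all genes. All 11 that rose had lower RNA in siIRE1a cells, and 7 of them had lower footprints as well. All 3 that fell had higher RNA and lower footprints. The genes that rose had GC contents between 36.0% and 44.1% and those that fell between 47.9% and 55.2%. With the GC trend removed 0 of the 97 were called, against 1.4% of all 8828 genes in that fit.

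The list of decapping, decay and translational repression held 6 of the 11 rises: 6 of 22 genes rose and 0 fell, against 5.9% of all genes that rose. DCP2, the decapping enzyme, had RNA of 0.699 in siCon and 0.519 in siIRE1a cells and footprints of 2.06 and 2.53. DCP2 was lower in RNA and higher in footprints, and its TE rose by 0.75 in the authors' deposited table (standard error 0.161, adjusted p = 4.2e-04). EIF4A2, an RNA helicase of translation initiation, had RNA of 3.65 and 3.24 and footprints of 12.6 and 15.0, and its TE rose by 0.44 in the authors' deposited table (adjusted p = 0.0159). LSM14A, a P-body protein, had RNA of 2.48 and 1.501 and footprints of 7.98 and 6.74, and its TE rose by 0.52 in the authors' deposited table (adjusted p = 0.0310). DCP1A, XRN1 (the exonuclease that degrades decapped mRNA) and LSM5, named after their values were seen, were the other rises. The list's median TE change was 0.11 and its median RNA change −0.15.

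Of 22 tested genes of Argonaute complexes and their loading, 2 rose and 1 fell, which is 13.6% against 10.5% of all genes, a share near the background. AGO3, another Argonaute gene, had RNA of 0.146 in siCon and 0.101 in siIRE1a cells and footprints of 0.675 and 0.803. Its TE rose by 0.83 in the authors' deposited table (standard error 0.242, adjusted p = 0.0128). AGO4, named after its values were seen, had footprints of 0.326 in siCon and 0.363 in siIRE1a cells. Its TE change was 0.31 in the authors' deposited table (adjusted p = 0.421). Footprints of AGO3 and AGO4 were thus higher in siIRE1a cells, as were those of AGO1, while those of AGO2 were lower. The HSP90 co-chaperone genes PTGES3 and STIP1 went opposite ways in the authors' deposited table, at 0.39 (adjusted p = 0.0170) and −0.49 (adjusted p = 0.00203). Of 22 genes of nuclear processing and export, 2 rose and 2 fell, against 5.9% and 4.62% of all genes. ERH, a small partner of the microprocessor, rose by 0.50 in the authors' deposited table (adjusted p = 0.0100) and HNRNPA2B1, an RNA-binding protein, by 0.56 (adjusted p = 0.0158). ADAR, the adenosine deaminase of double-stranded RNA, and ILF2 fell, at −0.47 (adjusted p = 0.0227) and −0.38 (adjusted p = 0.0400) in the authors' deposited table.

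Of 19 deadenylation genes, 1 rose and 0 fell, against 5.9% and 4.62% of all genes: CNOT6L, a catalytic subunit of CCR4-NOT, rose by 0.56 in the authors' deposited table (adjusted p = 0.0386). Of 12 genes that tail or degrade small RNAs, 0 were called, against 10.5% of all genes, and 1 had an unadjusted p under 0.05, against 25.9%. The other lists had 12 of 22 (Argonaute complexes and loading), 10 of 22 (nuclear processing), 3 of 19 (deadenylation) and 9 of 22 (decapping, decay and translational repression) at that unadjusted p. In the tailing and decay list that gene was TUT1, which encodes a terminal uridylyltransferase and had the smallest adjusted p of its list in the authors' deposited table, with a TE change of −0.39 (adjusted p = 0.156).

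**Figure D5:**
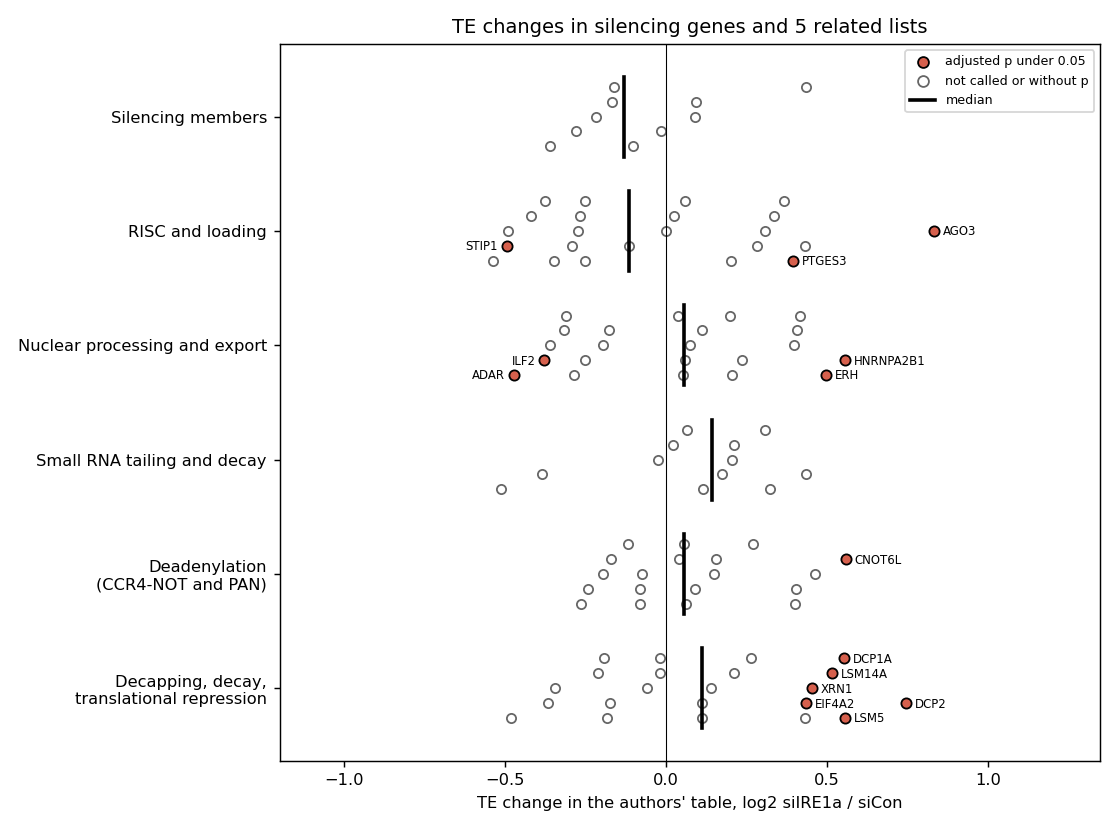
TE changes in the authors' deposited table (log2 siIRE1a over siCon) for the 10 silencing genes and 5 related lists, 1 point per gene, red where called at an adjusted p under 0.05, with the median of each list as a bar. No silencing gene is red, 6 of 22 genes of decapping, decay and translational repression are, and AGO3 at 0.83 lies furthest to the right.

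The genes whose pattern was most like that of DICER1, by Euclidean distance over the RNA, footprint and TE changes, were ELP2 (0.0114), STX7 (0.0119) and ATM (0.0128). Their RNA changes lay between −0.40 and −0.42, and their adjusted p for TE in the authors' deposited table between 0.102 and 0.141.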

How the data were processed

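RNA-seq and Ribo-seq were done in siCon and siIRE1a cells, and groups were taken from the siRNA labels. The labels describe the siCon samples as RNA-seq and the siIRE1a samples as Ribo-seq, whereas the tables hold both assays for both groups, so assays were taken from the column names. The submitters' processing notes name Bowtie 1.1.2 and hg19 (GRCh37). The counting of reads, the unit of abundance and the combination of replicates are not given in the sources used here. The deposited abundance table holds an RNA and a footprint value of unstated unit per group, and the deposited TE columns are their ratio. The deposited comparison table holds the authors' log2 TE change with its adjusted p-value, and its name cites DESeq2. Its sign is siIRE1a over siCon for all 934 called genes. The deposited run summary gives the count of clusters per library, per the file headers. How many reads stand behind a gene's value is unknown.

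The tables list 10522 entries. Dropping the 9 symbols listed 2 times gave 10504 genes, including 17 whose symbols read as dates, and 8878 had an adjusted p. Changes in RNA and footprints were log2 ratios with no pseudocount. No fit per replicate could be run, as replicates were combined. Standard errors of the TE changes were back-calculated from the p-values, taking these to come from a normal test, two-sided, adjusted by Benjamini and Hochberg. For the 4 members with a back-calculated p of 0.5 or more they are the median of 500 genes of like RNA abundance. GC content, 3′ UTRs and lengths came from GENCODE 29 (GRCh38), matched by symbol for 10442 genes (99.4%), and the GC trend was a polynomial of degree 3. The back-calculation and the trend were run on simulated data drawn from the same normal model. That run cannot show whether the authors' p-values came from a normal test. The members, the 5 lists, the 7-mers and the alternatives were chosen with earlier results of these data known. Genes outside the members were named by a fixed rule: ERN1, up to 3 rises and 3 falls of smallest adjusted p per list (or the gene of smallest p where none was called), and the 3 nearest patterns. AGO4, DCP1A, XRN1 and LSM5 fall outside that rule and were named after their values were seen, and the markers come from fixed lists. Python 3.11.15, numpy 2.4.6, pandas 2.3.3, scipy 1.17.1 and matplotlib 3.10.9 were used.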

Additional observations from a re-analysis of the deposited data

How the results depend on the processing

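The count of silencing genes with a called fall in TE was 0 under every alternative run. The count of rises was 0, but 1 (DICER1) at an adjusted p under 0.1 and 1 (DICER1) after median centring, and 0 with the GC trend removed. In the 5 related lists 11 rises became 16 and 3 falls became 4 at an adjusted p under 0.1. Both became 0 with the GC trend removed. Of all genes tested 10.5% were called at an adjusted p under 0.05, 16.5% at under 0.1 and 1.4% with the GC trend removed. The share of all genes called after median centring was not counted. The median RNA change of −0.07 became −0.0539 with a pseudocount of 0.1, −0.0206 with a pseudocount of 1, −0.0547 after median centring, −0.0125 after quantile normalization and −0.0294 with the GC trend removed. The RNA median of all genes was −0.0079 with a pseudocount of 0.1 and −0.0022 with a pseudocount of 1. It was 0.0187 after quantile normalization and −0.0027 with the GC trend removed. Only DROSHA (−0.0031) had a mean RNA abundance of at least 1. The median footprint change of −0.17 became −0.14 with a pseudocount of 0.1, −0.0627 with a pseudocount of 1, −0.0926 after median centring, −0.14 after quantile normalization, −0.11 with the GC trend removed and −0.24 over the 7 members whose mean reached 1. Over all genes the median footprint change was −0.0756 with a pseudocount of 0.1 and −0.0454 with a pseudocount of 1. It was −0.0095 after quantile normalization and −0.0160 with the GC trend removed. The median TE change of −0.13 became −0.16 from the TE columns, −0.10 after median centring and −0.0385 with the GC trend removed. For all genes these TE medians were −0.0547, −0.0088 and −0.0083. The sign of a member's change turned for DROSHA in RNA (median centring, quantile normalization, GC trend), TNRC6C in RNA (GC trend), DICER1 in footprints (median centring, quantile normalization, GC trend), DGCR8 in TE (GC trend) and AGO2 in TE (median centring). No paired analysis was possible because the tables hold 1 combined value per group, and no replicate could be left out. RNA values were under 1 for 9 members, but their unit is not stated. In siCon cells 8 of 10 members lay above the RNA median of all genes (0.412), on a scale between genes that is not settled. A pseudocount of 1, larger than that median, reduced the RNA change of AGO2 from −0.48 to −0.20. How far read depth limits the RNA changes is unknown.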
